A study of Homo sapiens with 16 samples.

Results

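siFOXA1.2 is 1 of 2 small interfering RNAs (siRNAs) directed against FOXA1 that were transfected into RT112 and SCaBER, a pair of cell lines from human bladder cancers. Its 4 libraries, 2 per line, were set against all 8 control libraries, 4 per line, which makes 12 of the 16 libraries measured. RT112 is a luminal line grown in RPMI and SCaBER a basal line grown in DMEM, so line and medium cannot be told apart. Every group was transfected at 10 nM per the labels with a lipid reagent, the controls with siControl.1 or siControl.2 and the treated cells with siFOXA1.2. Each siRNA has 2 libraries per line, labelled as experiment batch replicates 1 and 2, and no label says that they came from separate cultures. The p-values below therefore rest on the spread between these libraries, which may be technical. In the fit over both lines, that spread also holds differences in response between the lines and differences between the 2 control siRNAs. The comparison asks which genes respond to siFOXA1.2 in the same way in both lines, with the cell line as a covariate.

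FOXA1 is a forkhead pioneer factor: it binds its sites in closed chromatin and opens them for other factors. In urothelium it works beside GATA3 and PPARG, and it is a defining factor of luminal bladder cancer, which expresses uroplakins and trefoil factors. Basal bladder cancer instead expresses stratified keratins, CD44 and P-cadherin. A siRNA guides argonaute proteins to transcripts that match it, fully at its target and in part, through a short seed, at other transcripts.

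The 12 libraries held 4528513 to 7604581 counts, and a floor of 3 counts equalled 0.394 to 0.662 CPM (counts scaled to a common library total). Values per library are given as CPM with library sizes scaled by TMM, in the order siControl.1 batch 1 and 2, then siControl.2 batch 1 and 2, then siFOXA1.2 batch 1 and 2. Both lines expressed the epithelial markers EPCAM (179 to 227 CPM in RT112 and 179 to 287 CPM in SCaBER) and CDH1, and SCaBER had the basal keratin KRT6A at 581 to 1300.0 CPM. In RT112 KRT6A was at 1.36 to 9.47 CPM, and KRT5 at 81.7 to 168 CPM against 409 to 695 CPM in SCaBER. GATA3 read 333 to 467 CPM in RT112 and 7.79 to 18.1 CPM in SCaBER, and PPARG 67.2 to 85.7 and 12.5 to 29.1 CPM. The uroplakin UPK2 read 143 to 491 and 2.62 to 17.8 CPM. The luminal keratin KRT20 was at or near 0 in RT112 (0 to 0.729 CPM). These marker ranges are scaled by library totals alone. Of 15 markers of blood, vessel and connective tissue cells, 3 exceeded 3 counts in RT112. In SCaBER 4 did so under siFOXA1.2 and 4, not all the same, in the controls. The summed level of the 15 was 150 to 153 CPM under siFOXA1.2 against 91.5 to 140 CPM in the controls of RT112. In SCaBER it was 10 to 20.4 CPM against 11.2 to 38.8 CPM. PTPRC, the pan-leukocyte marker, was at 0 in every library, while LUM, a matrix proteoglycan of fibroblasts, reached 137 CPM in RT112; the part of these markers in the results was not tested. Mitochondrially encoded genes took 19.6 to 20.4% of counts under siFOXA1.2 and 18.0 to 21.2% in the controls of RT112, and 10.9 to 12.1% against 10.3 to 11.4% in SCaBER. By the mean change of the 500 genes that differed most between each pair of libraries, the nearest library was of the same line for 12 of 12, and for 0 of 4 siFOXA1.2 libraries was it the other siFOXA1.2 library of the line.

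FOXA1 (chr14:37589552-37595249, GRCh38.p14 as in RefSeq) read 35.6, 30.4, 18.1 and 27.7 CPM in the RT112 controls and 9.34 and 16.2 CPM under siFOXA1.2. Both siFOXA1.2 libraries lay below every control, the nearest being siControl.2 batch 1. In SCaBER the controls read 0.498, 0.607, 2.43 and 1.96 CPM and siFOXA1.2 0 and 0.948 CPM, values that rest on 0 to 15 counts and overlap. The mean under siFOXA1.2 was 45.6% of the control mean in RT112. In bulk RNA, here and below, fewer cells of a kind and less RNA per cell cannot be told apart. Over both lines the log2 fold change was -1.23 ± 0.47 (SE), and edgeR's quasi-likelihood test gave an adjusted p of 0.469 over all genes. For FOXA1 alone, a two-sided exact permutation test of log2(CPM + 0.5) with siRNA labels exchanged within each line gave a difference of -1.05 and p = 0.0356 over 225 labellings. Under siFOXA1.1, the other siRNA against the gene, the change from the same 8 controls was -3.20 (adjusted p = 0.0011 by edgeR), and the direct difference between the siRNAs, 1.82, had an adjusted p of 0.291.

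**Figure D1:**
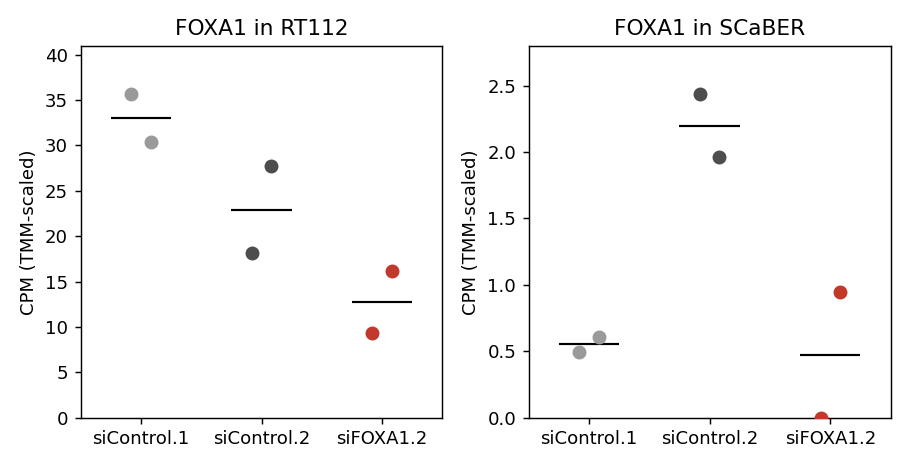
FOXA1 level in CPM (TMM-scaled) for each library of RT112 (left) and SCaBER (right); points are libraries, lines the mean of 2. In RT112 both siFOXA1.2 libraries (9.34 and 16.2 CPM) lie below the 4 controls, while in SCaBER, on an axis of its own, no library exceeds 2.43 CPM and the groups overlap.

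Few genes changed under siFOXA1.2, and those measured in both lines moved in the same direction in each. Of 14807 genes tested, 45 passed at an adjusted p under 0.05 (0.304%), 19 higher (0.128%) and 26 lower (0.176%); 1208 had an unadjusted p under 0.05. Of the 45, 40 were tested in each line alone, and all 40 had the same direction in RT112 and SCaBER. For 39 of them, 18 higher and 21 lower, the siFOXA1.2 libraries did not overlap the controls in either line. The exception was PRNP, the prion protein, whose SCaBER value of 121 CPM in siFOXA1.2 batch 2 lay below a control at 126 CPM (adjusted p = 0.0433 over both lines, and 0.088 with the batch number as a block). Among the 11402 genes tested in both lines, 299 (2.62%) did not overlap in this way. Because the test weighs the mean change over both lines, this sharing is partly built into the calls and is given as a description. The count fell to 22 without RT112 siFOXA1.2 replicate 1 and to 23 without RT112 siFOXA1.2 replicate 2. It rose to 152 with DESeq2, and to 224 (1.51%) where each siRNA had a mean of its own in each line. That fit kept 42 of the 45. It takes the difference between the control siRNAs, and differences in response between the lines, out of the residual spread.

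CALU (chr7:128739359-128773400), which encodes calumenin, a calcium-binding protein of the endoplasmic reticulum, rose most among the shared genes. It read 115, 107, 119 and 117 CPM in the RT112 controls and 318.5 and 318 CPM under siFOXA1.2. In SCaBER the controls read 164, 101, 182 and 168 CPM and siFOXA1.2 433 and 431 CPM. Every siFOXA1.2 library stood well above every control, and the 2 libraries of each line nearly coincided. The change was 2.80-fold (log2 1.48 ± 0.12, adjusted p = 3.15e-06 by edgeR), with 1.48 ± 0.14 in RT112 and 1.49 ± 0.20 in SCaBER.

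PABPC4 (chr1:39560816-39576790), a cytoplasmic poly(A)-binding protein, fell by a like share in both lines. The RT112 controls read 618, 689, 514 and 546 CPM and siFOXA1.2 258.5 and 302 CPM. The SCaBER controls read 319, 335, 384 and 346 CPM and siFOXA1.2 148 and 160.3 CPM. The groups were far apart in each line, at 47.3% and 44.6% of the control mean. The log2 change was -1.12 ± 0.11 (adjusted p = 1.83e-05 by edgeR).

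HMGN3 (chr6:79201245-79234682), which binds nucleosomes and loosens chromatin, fell further. Its RT112 controls read 93.7, 72.7, 72.8 and 102 CPM and siFOXA1.2 17.5 and 28.0 CPM. Its SCaBER controls read 132, 145, 111 and 94.8 CPM and siFOXA1.2 41.3 and 31.6 CPM. No library of the treated cells came near a control. The log2 change was -1.81 ± 0.18 (adjusted p = 1.87e-05 by edgeR). CALU, PABPC4 and HMGN3 were the 3 genes that passed in SCaBER alone (3 of 12902, 0.0233%, with 732 at an unadjusted p under 0.05), and each passed with the same sign in RT112 alone.

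Other chromatin genes were among the shared calls. HMGA2, an architectural DNA-binding protein of undifferentiated and basal cells, rose from 5.49, 3.74, 4.49 and 5.98 CPM to 11.0 and 30.4 CPM in RT112. In SCaBER, where its level was far higher, it rose from 198, 320, 204 and 271 CPM to 443 and 454 CPM. The 2 RT112 libraries under siFOXA1.2 differed more from each other than the lower one did from the highest control. The log2 change was 1.38 ± 0.24 (adjusted p = 0.0094 by edgeR). HMGB1, an abundant chromatin protein, fell by 0.87 on the log2 scale (adjusted p = 0.000109) and H2AFZ, the histone variant H2A.Z, by 0.64 (adjusted p = 0.0037). Both genes have near-identical copies elsewhere in the genome, and how the counting treated reads that fit several places is not given in the sources used here, so their counts are uncertain.

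The other shared rises are given gene by gene. CD44, the hyaluronan receptor, read 91.7, 63.98, 137 and 119 CPM in the RT112 controls and 268 and 233 CPM under siFOXA1.2. In SCaBER it read 499, 514, 402 and 436 CPM against 680.4 and 696 CPM, again without overlap, and the log2 change was 0.94 ± 0.16 (adjusted p = 0.00997 by edgeR). CDH3, P-cadherin, rose by a log2 of 0.67, EFNB2, the membrane ligand ephrin-B2, by 0.86, and FERMT1, the integrin activator kindlin-1, by 0.47 (adjusted p = 0.0433, and 0.0816 with the batch number as a block). TINAGL1, a secreted matrix protein, read 715, 651, 497 and 479 CPM in the SCaBER controls and 1010.0 and 1212 CPM under siFOXA1.2, with a log2 change of 0.96 ± 0.11 over both lines (adjusted p = 0.000156). RAB7A, the GTPase of late endosomes, rose by 0.80, SRPRA, the receptor that docks ribosomes to the endoplasmic reticulum, by 1.34, and CTSC, a lysosomal protease, by 1.12. The CTSC change was 1.66 ± 0.18 in RT112 and 0.52 ± 0.21 in SCaBER, and SRPRA rested on 5.48 to 19.3 CPM in the SCaBER controls. FAM49B, a regulator of the actin cytoskeleton, rose by 1.12, PRRG4, a membrane protein, by 0.91 and PTPN14, a phosphatase of the Hippo pathway, by 0.86. SNHG16, a noncoding host of small nucleolar RNAs, rose by 0.70. The smaller rises were PPP3CA, the catalytic subunit of calcineurin (0.64), LGALS8, galectin-8 (0.56), SON, a splicing cofactor (0.55), and TNRC6A, a partner of argonaute proteins in RNA silencing (0.48). All 4 lost their call with the block: by edgeR the adjusted p of PPP3CA went from 0.0324 to 0.0605, of LGALS8 from 0.042 to 0.0817, of SON from 0.0365 to 0.0731 and of TNRC6A from 0.0428 to 0.0562.

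The other shared falls, all but that of NEMP2, were smaller than that of HMGN3. SLC25A24, a carrier of adenine nucleotides across the mitochondrial inner membrane, read 62.8, 55.3, 51.8 and 54.2 CPM in the RT112 controls and 30.7 and 26.8 CPM under siFOXA1.2. In SCaBER it read 188, 230, 168 and 183 CPM against 94.2 and 101 CPM, and its log2 change was -0.97 ± 0.13 (adjusted p = 0.000592 by edgeR). The siFOXA1.2 libraries lay below every control in each line. TIMM17B, a subunit of the inner-membrane import channel, fell by 1.77 on the log2 scale, MRPL35 of the mitochondrial ribosome by 0.75, and UQCRB of respiratory complex III, which has near-identical copies, by 0.44. SLC25A44, another mitochondrial carrier, fell by 1.14 (adjusted p = 0.0496, and 0.0553 with the batch number as a block). RPA3, a subunit of the single-strand DNA-binding complex RPA, fell by 0.88, CDC25B, a phosphatase that starts mitosis, by 0.70, and ATIC of purine synthesis by 0.66. PYCARD, the inflammasome adaptor ASC, fell by 1.23 and PLCE1, a phospholipase C, by 1.51. TOB2 and BTG3, both of the BTG and TOB family of antiproliferative proteins, fell by 0.77 and 0.95. For BTG3 the adjusted p was 0.0384, and 0.0621 with the block. TRAPPC8, a subunit of a trafficking complex, fell by 1.07 (adjusted p = 0.0428, and 0.0817 with the block). NEMP2, of the nuclear envelope, fell by 2.85 (adjusted p = 0.0455, and 0.0945 with the block), from 1.33 to 11.7 CPM in the controls to 0.625 to 1.1 CPM under siFOXA1.2, close to the floor. The remaining 2, CNN2, an actin-binding calponin, and PUM3, a nucleolar RNA-binding protein, fell by 0.74 and 0.66.

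**Figure D2:**
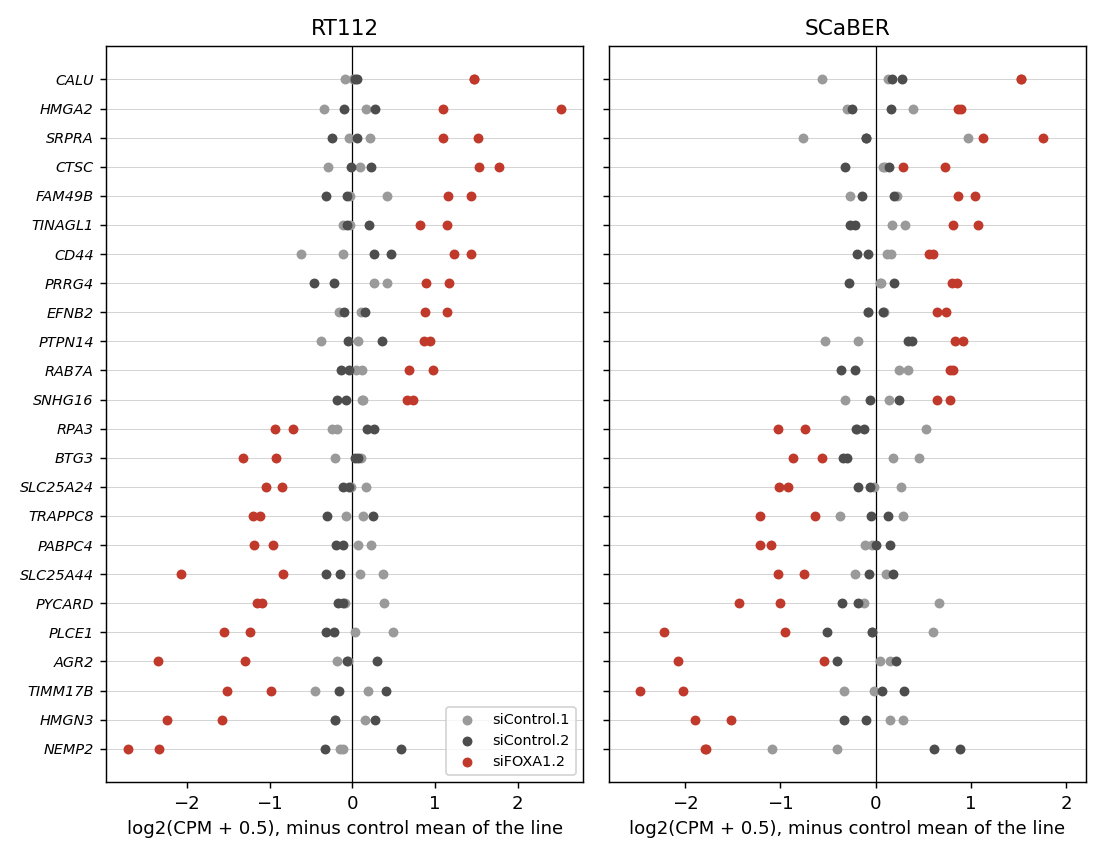
The 12 shared genes with the largest rises and the 12 with the largest falls, each library as log2(CPM + 0.5) minus the mean of the 4 control libraries of its line, RT112 left and SCaBER right. In both lines the red siFOXA1.2 points lie outside the grey control points for all 24 genes; the CALU points nearly coincide within each line, and the HMGA2 points of RT112 lie apart.

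**Figure D3:**
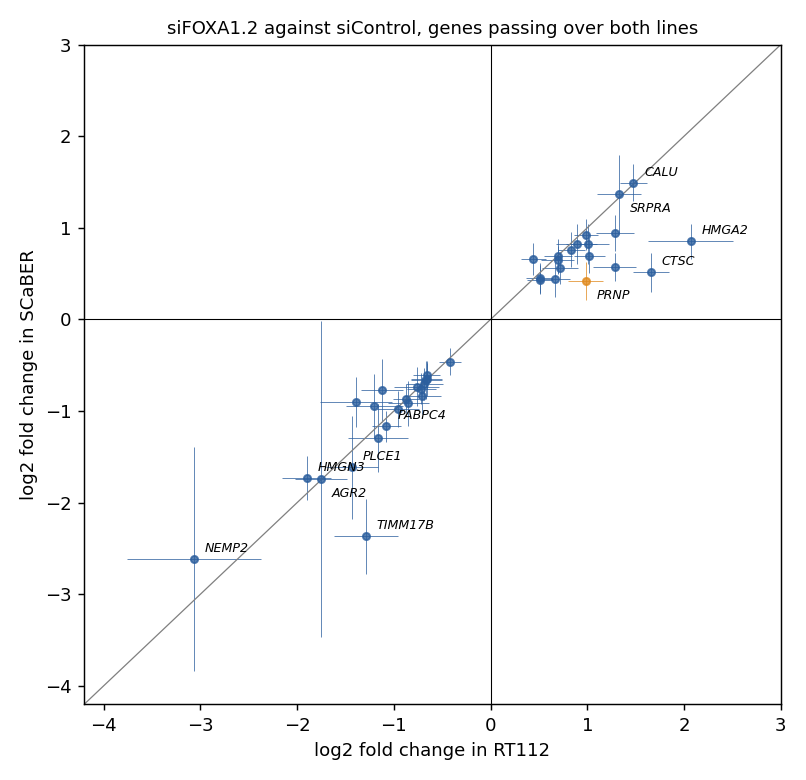
Log2 fold change of siFOXA1.2 against siControl in RT112 (x) and SCaBER (y) with standard errors, for the 40 genes that passed over both lines and were tested in each; the line marks equal change and PRNP is in orange. All 40 lie in the quadrants of equal sign, and CTSC and HMGA2 have the larger change in RT112.

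Promoters of 31 of the 45 genes were found in RefSeq (GRCh38.p14, 250 bases before and 50 after the start). They were searched on both strands for 3 forms of the forkhead core. The first form searched was TGTTTAC. The next form searched was TGTTTGC. The last form searched was TATTTAC. A match was present in 2 of the 31 (6.45%) and in 9.57% of all 35116 promoters of that length. For the 31 genes only the first listed promoter was searched, while the 35116 count every listed promoter. CALU, the gene that rose most, had none; CD44 and PLCE1 had 1 each, so those 3 promoters are shown, 5′ to 3′ on the strand of the gene, with the match in capitals. In PLCE1 the match is the reverse complement of TGTTTAC. A match describes these letters and is no evidence of binding.
CALU promoter, chr7:128739109-128739408, plus strand: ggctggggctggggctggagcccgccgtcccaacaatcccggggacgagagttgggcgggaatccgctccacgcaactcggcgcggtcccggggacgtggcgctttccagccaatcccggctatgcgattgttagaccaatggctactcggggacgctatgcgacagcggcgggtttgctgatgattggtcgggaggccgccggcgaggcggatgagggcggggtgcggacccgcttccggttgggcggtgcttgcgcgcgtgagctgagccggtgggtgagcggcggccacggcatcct
CD44 promoter, chr11:35138921-35139220, plus strand: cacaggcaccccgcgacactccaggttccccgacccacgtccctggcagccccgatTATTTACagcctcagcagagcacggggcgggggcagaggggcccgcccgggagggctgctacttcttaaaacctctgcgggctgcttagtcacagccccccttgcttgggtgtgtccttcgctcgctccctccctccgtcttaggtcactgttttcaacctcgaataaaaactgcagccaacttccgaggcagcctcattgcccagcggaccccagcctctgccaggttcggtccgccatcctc
PLCE1 promoter, chr10:94088776-94089075, plus strand: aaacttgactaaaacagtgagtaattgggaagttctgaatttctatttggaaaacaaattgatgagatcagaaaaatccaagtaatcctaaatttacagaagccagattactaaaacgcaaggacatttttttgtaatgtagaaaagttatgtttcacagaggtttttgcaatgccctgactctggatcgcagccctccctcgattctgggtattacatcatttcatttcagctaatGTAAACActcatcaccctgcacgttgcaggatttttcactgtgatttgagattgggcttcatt

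The other falls, of 5 genes, were measured in RT112, as their levels in SCaBER were at or near the floor. TFF1, a secreted trefoil peptide of luminal epithelium, read 45.9, 48.6, 65.2 and 79.9 CPM in the RT112 controls and 3.26 and 2.21 CPM under siFOXA1.2. It was at 0 in all 6 SCaBER libraries, which allows up to 0.463 to 0.662 CPM. Its log2 change was -4.42 ± 0.45 (adjusted p = 0.000268 by edgeR), the largest of the 45. CEACAM6, a surface adhesion molecule, read 69.2, 49.4, 94.4 and 111 CPM against 9.79 and 12.3 CPM in RT112 (log2 change -2.94, adjusted p = 0.017). HPGD, which breaks down prostaglandins, read 234, 233, 137 and 109.8 CPM against 48.2 and 38.7 CPM, and its controls split by siRNA. BCAS1 and OSBP2, an oxysterol-binding protein, fell by 2.08 and 1.95, and the adjusted p of OSBP2, 0.0451, became 0.0562 with the block. All 5 stood below every RT112 control, and in SCaBER none exceeded 2.32 CPM in any library. AGR2, a disulfide isomerase of secretory cells, was counted among the shared genes, but its SCaBER values of 1.09 to 1.95 CPM in the controls and 0 and 0.948 CPM under siFOXA1.2 lie near the floor. In RT112 it fell from 99.6, 109.8, 109 and 140.1 CPM to 21.9 and 45.8 CPM.

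Over both lines together, the luminal and basal marker lists had medians of opposite sign. Of 25 luminal markers, 21 were tested, 0 passed higher and 4 lower (TFF1, CEACAM6, HPGD and AGR2), and 20 of 21 estimates were negative, with a median log2 change of -0.89 against -0.01 over all genes. The median was -0.44 over the 9 members tested in both lines, -0.51 with a mean per siRNA and line, and -0.49 with limma on log2(TPM + 1), which called 0 of them. UPK2 and UPK1B, which build the urothelial plaque, had changes of -1.26 (adjusted p = 0.066) and -0.81 (adjusted p = 0.0709 by edgeR). Of 26 basal markers, all tested, 2 passed higher (CD44 and CDH3) and 0 lower, and 22 of 26 estimates were positive, with a median of 0.33. By library, as log2 level minus the control mean of the line, the luminal median under siFOXA1.2 was -0.832 and -0.811 in RT112. In SCaBER it was 0 and -0.279, and the first value equalled controls. Members without counts in SCaBER, such as TFF1, enter that median as 0, so a value of 0 does not measure a lack of change. In the fit of SCaBER alone the members tested there had a median of -0.52. Of the 9 tested in both lines, 7 were negative in both and 0 positive in both. The basal median was 0.44 and 0.267 in RT112, above every control. In SCaBER it was 0.458 and 0.146, and the second value lay below a control at 0.248. KRT5, KRT6A and KRT14, the keratins that define the basal type, had changes of 0.03, 0.28 and 0.12 and did not pass, and KRT17 had a change of -0.52 (adjusted p = 0.153). With DESeq2, 0 luminal markers passed higher and 6 lower, and 3 basal markers passed higher and 1 lower. At an unadjusted p under 0.05, 12 luminal markers were lower and 0 higher, and 10 basal markers were higher and 1 lower. Of all 14807 genes, 534 were higher and 674 lower at that threshold, 0.128% and 0.176% passed higher and lower at an adjusted p under 0.05, and 48.2% of estimates were positive. With DESeq2, 50 of the 14807 passed higher and 102 lower. With 1 mean per siRNA and line, edgeR called 4 luminal markers lower and 0 higher, and 7 basal markers higher and 1 lower. That fit called 140 of all genes higher and 84 lower.

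**Figure D4:**
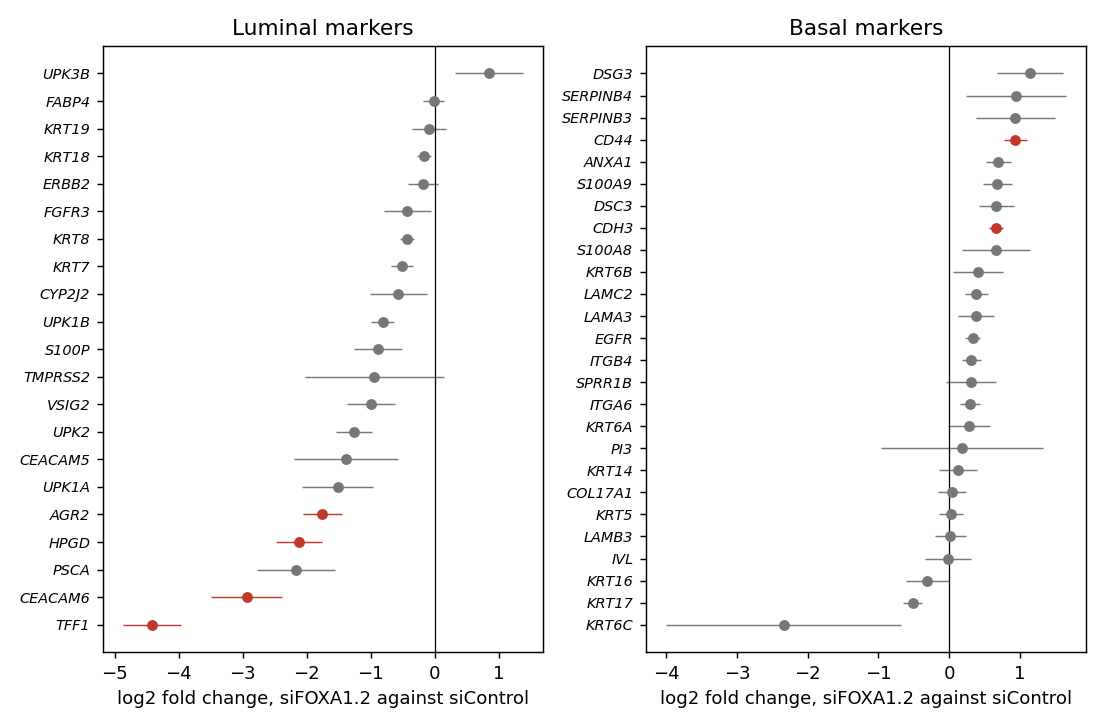
Log2 fold change of siFOXA1.2 against siControl over both lines, with standard errors, for the tested members of the luminal (21 genes) and basal (26 genes) marker lists; red marks the genes that passed. Most luminal points lie left of 0 and most basal points right of it, and 4 and 2 of them passed.

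The factors above these markers moved less. GATA3 and PPARG, partners of FOXA1, had changes of -0.32 ± 0.15 and -0.19 ± 0.19 (adjusted p = 0.594 and 0.875 by edgeR). Of 18 tested luminal transcription factors 0 passed in either direction, by edgeR or by DESeq2, with a median of -0.14, and 0 were higher and 3 lower at an unadjusted p under 0.05. Of 14 basal factors 1 passed by edgeR, HMGA2, and 2 by DESeq2, all higher, with 3 higher and 1 lower at an unadjusted p under 0.05. Among all 14807 genes, edgeR called 19 higher and 26 lower, DESeq2 50 and 102, and 534 and 674 had such an unadjusted p. The list median was -0.07, and 0.14 with siControl.2 alone as controls. ZBED2, a basal factor the study followed, had a change of -0.21 (adjusted p = 0.956) whose controls ran from 5.89 to 26.2 CPM in RT112 and from 15.5 to 64.9 CPM in SCaBER. The 12 markers of urothelial and epithelial identity had a median of -0.18. Of these 12, 0 passed by edgeR, 2 passed lower by DESeq2, and 1 was higher and 4 lower at an unadjusted p under 0.05. With 1 mean per siRNA and line, edgeR called 1 luminal factor lower, 2 basal factors higher and 2 identity markers lower. That fit called 140 of all 14807 genes higher and 84 lower.

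The interferon genes gave no calls in the main fit. Of 79 interferon response genes 74 were tested, 0 passed in either direction by edgeR or by DESeq2, and 0 were higher and 4 lower at an unadjusted p under 0.05. At that threshold 534 of all 14807 genes were higher and 674 lower. With 1 mean per siRNA and line, edgeR called 1 interferon gene lower and 0 higher, beside 84 lower and 140 higher of all genes. With siControl.1 alone as controls it called 1 lower and 0 higher, beside 35 and 56 of all genes. For the 74 interferon genes the values were as follows. Their median was -0.07 under siFOXA1.2, and 1.62 under siFOXA1.1 against the same controls. It was -0.19 with siControl.1 alone and 0.11 with siControl.2 alone as controls, whose own difference had a median of 0.33. STAT2 and IRF9, both subunits of the factor that transmits interferon signals, had changes of 0.26 ± 0.28 and 1.04 ± 0.61 (adjusted p = 0.889 and 0.713), and CD274, the checkpoint ligand PD-L1, of -0.02 ± 0.70 (adjusted p = 0.999). In the 2 RT112 libraries under siFOXA1.2, IRF9 read 0.445 and 5.11 CPM and CD274 0 and 3.18 CPM, so the batches differed widely.

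Cell cycle lists held 1 call by edgeR in the main fit, to which the edgeR counts here refer unless a setting is named. As background, edgeR called 19 of all 14807 genes higher and 26 lower, and DESeq2 50 and 102. At an unadjusted p under 0.05, 534 were higher and 674 lower. Of 46 genes of S phase and DNA replication 0 passed by edgeR and 1, lower, by DESeq2, with 0 higher and 4 lower at an unadjusted p under 0.05 and a median of -0.14. Of 50 genes of G2 and mitosis 1 passed by edgeR, CDC25B, and 2 by DESeq2, all lower, with 0 higher and 10 lower at an unadjusted p under 0.05. Of the 50 estimates 40 were negative, with a median of -0.11. Under siFOXA1.1 those medians were -1.20 and -1.84 from the same controls. The endoplasmic reticulum stress list had 22 of 27 estimates above 0 (81.5%, against 48.2% of all genes) and a median of 0.20, with 0 calls by edgeR or DESeq2 and 4 higher and 0 lower at an unadjusted p under 0.05. For hypoxia and glycolysis 21 of 28 estimates were positive (median 0.17), with 0 calls by edgeR, 3 higher by DESeq2, and 8 higher and 1 lower unadjusted. For p53 targets 20 of 28 were positive (median 0.15), with 0 calls by edgeR, 1 higher by DESeq2, and 3 higher and 2 lower unadjusted. BNIP3, a hypoxia-induced mitophagy gene, came nearest with 1.27 (adjusted p = 0.0633), and CDKN1A, the p53 target that halts the cycle, had 0.73 (adjusted p = 0.0771 by edgeR). The medians were 0.20 for fatty acid and PPARG target genes, 0.10 for cholesterol synthesis, 0.11 for adhesion and junction genes, 0.06 for NF-kB targets, 0.01 for mesenchymal and TGF-beta response genes and -0.03 for AP-1 and immediate early genes. In these 6 lists edgeR called 0 genes, DESeq2 called 1 fatty acid gene higher and 1 cholesterol gene lower, and the genes at an unadjusted p under 0.05 numbered 3, 5, 4, 2, 1 and 1 in the same order. Other forkhead genes had a median of 0.06, mitochondrially encoded genes 0.11 and markers of other cells 0.31 over 4 members, with 0 calls by edgeR or DESeq2 and 1, 0 and 0 genes at an unadjusted p under 0.05. In the RNA interference machinery TNRC6A passed, beside a median of -0.03 over 15 genes, and 0 passed by edgeR with the block, with library totals or with siControl.1 alone. With 1 mean per siRNA and line, edgeR called 3 endoplasmic reticulum stress, 4 hypoxia and glycolysis and 2 p53 genes, all higher. That fit called 3 cholesterol, 2 adhesion, 1 fatty acid and 1 mesenchymal gene higher. Lower were 1 cholesterol gene, 1 NF-kB gene and 3 genes of G2 and mitosis. Of all 14807 genes it called 140 higher and 84 lower.

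RT112 and SCaBER share no library, so the calls of one line can be described in the other. In RT112 alone, 68 of 13026 genes passed (0.522%), 20 higher and 48 lower. Of these, 51 were tested in SCaBER, and 43 had the same sign there (84.3%, against 54.5% of all genes tested in both). Their median change in the direction called was 1.29 in RT112, where they were selected, and 0.39 in SCaBER. The control siRNAs set a background for this. siControl.1 against siControl.2 gave 408 calls in RT112 (3.29% of 12405), from 2 libraries against 2, and of 359 tested in SCaBER 70.5% had the same sign there, against 53.9% of all genes, with a median of 0.25.

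Over both lines the control siRNAs differed at 113 of 14036 genes (0.805%), from 4 libraries against 4. The spread in that fit did not hold the difference between the controls, as it did for the 45, so the counts are not alike. By edgeR, 0 of the 45 genes passed that test; 5 had an unadjusted p under 0.05 there (RAB7A, HPGD, PLCE1, PTPN14 and SON), and 1 of the 45 passed it with DESeq2. Since the difference between the controls enters the spread of the 8 control libraries, genes that differ between them were less likely to be called. With siControl.1 alone as controls 91 genes passed (0.649%) and with siControl.2 alone 158 (1.12%). In all 4 pairings of line and batch, 43 of the 45 differed from the controls of their batch in the direction called. The same libraries selected the 45, so this is a description and no replication.

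The lines differed at few genes. The interaction of line and siFOXA1.2 passed at 2 of 14807 genes (0.0135%, 907 at an unadjusted p under 0.05), and both were at 0 in 1 arm of RT112. STARD4, a sterol transporter, was at 0 in the 4 RT112 controls and read 2.37 and 2.21 CPM under siFOXA1.2, at least 4.99-fold higher by a floor of 3 counts per library. In SCaBER it read 22.1, 27.3, 26.3 and 17.9 CPM against 16.6 and 20.8 CPM, which overlap. CAMK2D, a calcium-dependent kinase, read 6.02, 3.89, 2.77 and 2.04 CPM in the RT112 controls and 0 under siFOXA1.2, at least 8.34-fold lower by the same floor. In SCaBER its controls of 15.1 to 28.3 CPM overlapped 27.0 and 22.3 CPM. The adjusted p by edgeR was 0.0271 for the STARD4 interaction and 0.0459 for the CAMK2D interaction, and both became 0.0556 with the batch number as a block, which left 0 calls and 826 genes at an unadjusted p under 0.05. FAM129A, a stress response gene, had the next smallest p: 16.3, 24.0, 15.8 and 17.5 CPM against 51.2 and 51.5 CPM in RT112, and 169 to 173 CPM in all 6 SCaBER libraries (interaction 1.47 ± 0.26, adjusted p = 0.0503). MSRB3, a reductase of oxidised methionine, was at 0 in the RT112 controls and at least 3.08-fold higher under siFOXA1.2. PADI4, a deiminase, was at 0 in the SCaBER controls and at least 1.77-fold higher, and both had the adjusted p of FAM129A. None of the 45 genes passed the interaction by edgeR or DESeq2, and 4 of them had an unadjusted p under 0.05. Genes whose change differs between the lines were less likely to be among the 45. Those at or near the floor in SCaBER could hardly pass, so this count cannot show that the lines respond alike.

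siFOXA1.1 changed more genes. The direct test of siFOXA1.2 against siFOXA1.1 passed at 1492 of 14051 genes (10.6%), 757 higher and 735 lower, and siFOXA1.1 against the same 8 controls at 2635 of 14878 (17.7%). Of the 45 genes 18 passed the direct test, 16 of them farther from the controls under siFOXA1.2 and 2 under siFOXA1.1, though the siFOXA1.2 libraries had already entered their selection. The values from the shared controls stand side by side as follows. CALU changed by 1.48 under siFOXA1.2 and 1.69 under siFOXA1.1, and the direct difference did not pass (adjusted p = 0.622 by edgeR). PABPC4 changed by -1.12 and -1.80, with a direct difference of 0.67 (adjusted p = 0.0265). HMGN3 changed by -1.81 and -0.66, a difference of -1.16 (adjusted p = 0.013). HMGA2 changed by 1.38 and -0.10, a difference of 1.47 (adjusted p = 0.00328), and SLC25A24 by -0.97 and 0.09, a difference of -1.07 (adjusted p = 0.00135). FERMT1 changed in opposite directions, by 0.47 and -0.93 (direct difference 1.48, adjusted p = 0.00769).

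**Figure D5:**
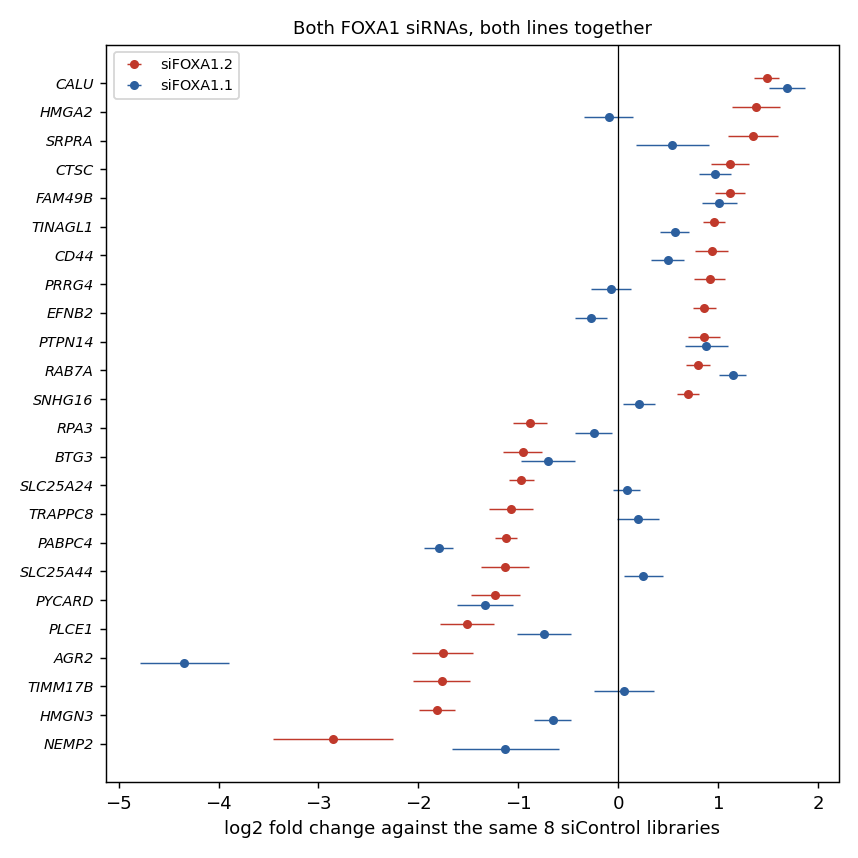
Log2 fold change with standard error over both lines for siFOXA1.2 (red) and siFOXA1.1 (blue), each against the same 8 control libraries, for the 24 shared genes with the largest changes. CALU, FAM49B and PYCARD have near-equal values, and HMGA2, EFNB2, SLC25A24 and TIMM17B are far apart.

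With separate controls for the siRNAs, so that no library stood on both sides, some genes passed alike under both and others in opposite directions. Against siControl.1, 55 of the 91 genes called for siFOXA1.2 had the same direction under siFOXA1.1 against siControl.2 (60.4%, against 49.8% of all genes). Of the 91, 22 passed in both with the same direction and 12 in opposite directions, where siFOXA1.1 called 13.6% of genes. With the controls exchanged, 89 of 158 had the same direction (56.3%, against 52.3%), with 28 called alike and 19 oppositely, where siFOXA1.1 called 9.83%. In both arrangements 9 genes passed alike: CALU, FAM49B and RAB7A, which rose, and PABPC4, HMGB1, H2AFZ, CDC25B, TOB2 and HPGD, which fell. They were counted after the values were seen, and 8 of them, all but HPGD, are among the 39 shared genes. Both arrangements used the same siFOXA1.2 and siFOXA1.1 libraries, and the siFOXA1.2 libraries also selected the 39. The 9 genes are therefore a description and no replication.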

How the data were processed

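RNA from RT112 and SCaBER cells transfected with siControl.1, siControl.2, siFOXA1.1 or siFOXA1.2 was sequenced from the 3' end. Per the submitters' processing notes, the authors trimmed reads with TrimGalore 0.6.2 (minimum base quality 20, minimum read length 10), aligned them with STAR 2.6.1a to hg38 and counted reads per gene of GENCODE 29, and deposited raw counts. The study's methods name another human build, so the build rests on the notes. The deposited TPM table holds the authors' counts divided by gene length, which suits 3' reads poorly, and was used only as an alternative.

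Groups came from the labels. edgeR 4.0.16 (R 4.3.3) fitted the counts of 12 libraries with TMM scaling and the filterByExpr filter, cell line as covariate, and its quasi-likelihood F test with Benjamini-Hochberg adjustment at 0.05; the SE was the log2 change over the root of F. Every p called unadjusted comes from the same tests. Alternatives used DESeq2 1.42.0, limma 3.58.1 on log2(TPM + 1), other scalings, filters, controls and libraries, and the replicate number as a block. The labels call that number an experiment batch, so it pairs libraries; the deviations of same-numbered libraries from their group means correlated at -0.0016 to 0.0387. The comparison of siFOXA1.2 with all controls was run on simulated counts by edgeR, DESeq2 and limma, and the other steps were not. The simulated counts held no difference between the control siRNAs and no difference in response between the lines. A floor is 3 counts, and floors cover counting error only.

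The members, gene lists and tests were chosen with earlier results of these data known. Named by rule were 7 genes the study followed or that act with FOXA1, the 12 largest rises and falls among the shared genes with a mean of at least 20 counts, the 3 list members with the smallest p, and the 5 smallest interaction p. The other called genes and the keratins were named after their values were seen. Positions and promoters came from RefSeq on GRCh38.p14, matched by symbol. The siRNA sequences were not used here.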

Additional observations from a re-analysis of the deposited data

Results flagged for a closer look

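Each group of 4 control libraries of a line was searched for a library far from the others, over 57 named genes, and 8 of 110 groups (7.27%) held one. Chance gives about 1 in 20 for independent values. Here the same libraries recur in every gene, each group mixes 2 control siRNAs, and most genes were selected by the main test. That rate is therefore no strict background. For CDH3 it was RT112 siControl.1 batch 1, at 66.9 CPM. For LGALS8 it was RT112 siControl.2 batch 2, at 130.3 CPM, and for CTSC SCaBER siControl.2 batch 2, at 61.2 CPM. PYCARD stood apart in siControl.1 batch 2 of both lines, at 33.0 CPM in RT112 and 43.9 CPM in SCaBER. RPA3 stood apart in SCaBER siControl.1 batch 2 at 151 CPM, and IRF9 in RT112 siControl.1 batch 2 at 0.467 CPM. CEACAM6 had 2.32 CPM in SCaBER siControl.1 batch 1, in a line that otherwise held almost none.

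The lines differed by the interaction test of edgeR at STARD4 (RT112 minus SCaBER, 7.25 on the log2 scale) and CAMK2D (-7.88). Both values depend on the prior count, since 1 arm of RT112 was at 0.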

How the results depend on the processing

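The 45 calls became 47 with DESeq2 size factors, 42 with library totals, 47 without mitochondrial genes, 57 with all 16 libraries and, as an alternative added after seeing the data, 44 among genes tested in both lines. They became 227 without a filter, 152 with DESeq2, 91 and 158 with siControl.1 or siControl.2 alone, 224 with 1 mean per siRNA and line and 27 with limma. The 39 shared genes became 102, 107, 83, 148 and 106 in the first 5 of these. With the replicate block, which pairs libraries by batch, 35 genes passed, 34 of them among the 45, with 31 shared, 0 interactions, 135 genes between the controls and 1310 between the FOXA1 siRNAs. The block ended the call of 11 of the 45 genes, 9 of them shared, with the values given beside them, and of both interactions. The 2 interactions became 6 with library totals, 6 without mitochondrial genes, 69 without a filter, 26 with DESeq2, and 6 and 0 with siControl.1 or siControl.2 alone. The 113 genes between the controls became 320 without a filter and 313 with DESeq2.

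Leaving out each library gave 22 to 65 changed genes, 19 to 55 shared genes, 0 to 7 interactions, 71 to 219 genes between the controls, 959 to 2103 between the FOXA1 siRNAs and a FOXA1 change of -1.54 to -0.99. Over all settings the FOXA1 change stayed negative, at -1.54 to -0.78, the last with limma. Its adjusted p lay between 0.18, by edgeR without a filter, and 0.764, by edgeR without RT112 siFOXA1.2 replicate 1. Changes near 0 turned sign: STAT2 with siControl.1 alone (-0.045), ZBED2 with siControl.2 alone (0.11), 1 mean per siRNA and line (0.041) and limma (0), KRT14 with siControl.1 alone (-0.056), and CD274 with the block (0.229), siControl.2 alone (0.228), all 16 libraries (0.075) and limma (0.023). Leaving out 1 library gave ZBED2 -0.331 to 0.022 and CD274 -0.279 to 0.471, KRT14 -0.206 to 0.36 and KRT5 -0.123 to 0.172; ZBED2 turned sign without RT112 siControl.2 replicate 2, and CD274 without SCaBER siControl.1 replicate 2, SCaBER siControl.2 replicate 2, RT112 siControl.1 replicate 1 or RT112 siFOXA1.2 replicate 1. KRT14 turned sign without RT112 siFOXA1.2 replicate 1, and KRT5 without that library, RT112 siControl.1 replicate 1 or 2, or SCaBER siControl.2 replicate 2. None of these passed. List medians near 0 also turned sign: beside interferon and basal factors with siControl.2 alone, cholesterol synthesis with siControl.2 alone (-0.04), NF-kB targets with DESeq2 (-0.10), siControl.1 alone (-0.08) and all 16 libraries (-0.01), RNA interference with siControl.1 alone (0.02), basal factors (0.01) and AP-1 genes (0.01) with limma, and mesenchymal genes with library totals (-0.01). The markers of other cells had -0.08 without a filter and among genes tested in both lines. The cause of these moves was not tested.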
